A study of Mus musculus with 8 samples.

Results

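The set comprised 8 genes of the BCL2 family, taken by symbol from a count table of 53700 genes. On the mouse genome (GRCm38) they lie on chromosome 1 (Bcl2), chromosome 2 (Bcl2l1 and Bcl2l11), chromosome 3 (Mcl1), chromosome 6 (Bid), chromosome 14 (Bcl2l2), chromosome 17 (Bak1) and chromosome 19 (Bad). All 8 had a row in the table, and 7 of them passed the filter on low counts that left 12132 genes for testing. Polyadenylated RNA was measured in 8 pools of donor blood progenitors, with a single library for every pairing of 2 cell types with 4 donor genotypes. Cells sorted as CD48- CD150+ are called haematopoietic stem cells (HSC), and those sorted as CD48+ CD150- multipotent progenitors (MPP), both inside LSK, the lineage-negative gate with Sca-1 and Kit on the surface. Donor marrow of the CD45.2 type had gone into irradiated wild-type CD45.1 recipients, and cells were sorted 13 weeks later, each pool holding equal cell numbers from 5 mice. Donors labelled N5 were Nfat5 fl/fl Vav-Cre, those labelled IFNAR were IFNAR1-deficient, those labelled DKO carried both defects, and those labelled WT were Nfat5 +/+ Vav-Cre. Vav-Cre is active in blood-forming cells, and the IFNAR label names no Cre. Mouse age, and whether the HSC and MPP of a genotype came from the same recipients, are not in the labels.

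BCL2 family proteins decide whether the outer mitochondrial membrane stays intact. BCL2, BCL-XL (Bcl2l1), MCL1 and BCL-w (Bcl2l2) keep the effectors BAX and BAK (Bak1) in check. The BH3-only proteins BID, BAD and BIM (Bcl2l11) bind some or all of these guardians, and some of them also act on the effectors. Once active, the effectors open the membrane and release cytochrome c. In mouse marrow, MCL1 is required for stem cells to survive, BCL-XL protects maturing red cells and sets platelet lifespan, and extra BCL2 enlarges the stem cell compartment.

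Bcl2l1 was the only member whose cell type difference had one direction in all 4 genotypes: its level was higher in HSC than in MPP by 1.54-fold to 4.00-fold. Bcl2 averaged nearly the same in both. Mcl1 was several times higher in the HSC libraries labelled N5 and DKO than in those labelled IFNAR and WT. Bcl2l11 had no count in the HSC libraries labelled IFNAR and DKO and at least 326 counts in each of the other 6 libraries. Bad was highest in the WT library and lowest in the DKO library of both cell types. No member passed the test across all genes in any of the comparisons (edgeR's quasi-likelihood test, Benjamini-Hochberg adjusted p under 0.05).

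Library totals were 28871693 to 47205950 counts, with 13510 to 14781 genes detected and 1.76% to 2.56% of counts from mitochondrial genes. Levels below are in CPM, counts scaled to a common library size after TMM normalization, and 3 counts, the detection floor, equal 0.0633 to 0.105 CPM. The sorted populations matched their gates: Slamf1, the gene of CD150, averaged 74.5 ± 18.2 CPM in HSC and 0.00688 ± 0.0138 CPM in MPP (SD, n = 4 each), and Cd48 averaged 1.59 ± 3.18 CPM in HSC and 249 ± 36.7 CPM in MPP. All 14 listed stem cell genes had a positive fold change in HSC, of which edgeR called 0 and 11 had an unadjusted p under 0.05. All 12 listed MPP genes had a negative one, of which edgeR called 2 and 11 had an unadjusted p under 0.05. Over all tested genes, 44.2% had a positive fold change, edgeR called 0.0165%, and 10.1% had an unadjusted edgeR p under 0.05. The levels of Nfat5 and Ifnar1 themselves did not track the donor labels. Nfat5 stood at 22.7, 3.12, 35.5 and 33.2 CPM in the HSC libraries labelled N5, IFNAR, DKO and WT, and at 7.69, 0.193, 11.5 and 5.59 CPM in the matching MPP libraries. Ifnar1 ran from 35.1 CPM in the HSC library labelled DKO to 126 CPM in the HSC library labelled N5, and reached 125 CPM in the MPP library labelled DKO. In both cell types Nfat5 was lowest in the library labelled IFNAR, whose label names no Nfat5 defect. Why the levels differ from the labels was not tested. A count over a whole gene cannot show a deletion of part of it, and the deleted parts are not in the labels. Every library is therefore named here by its label, and each direction by genotype rests on those labels. Each cell type and genotype had 1 library, so the errors measure only the spread between these libraries.

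**Figure D1:**
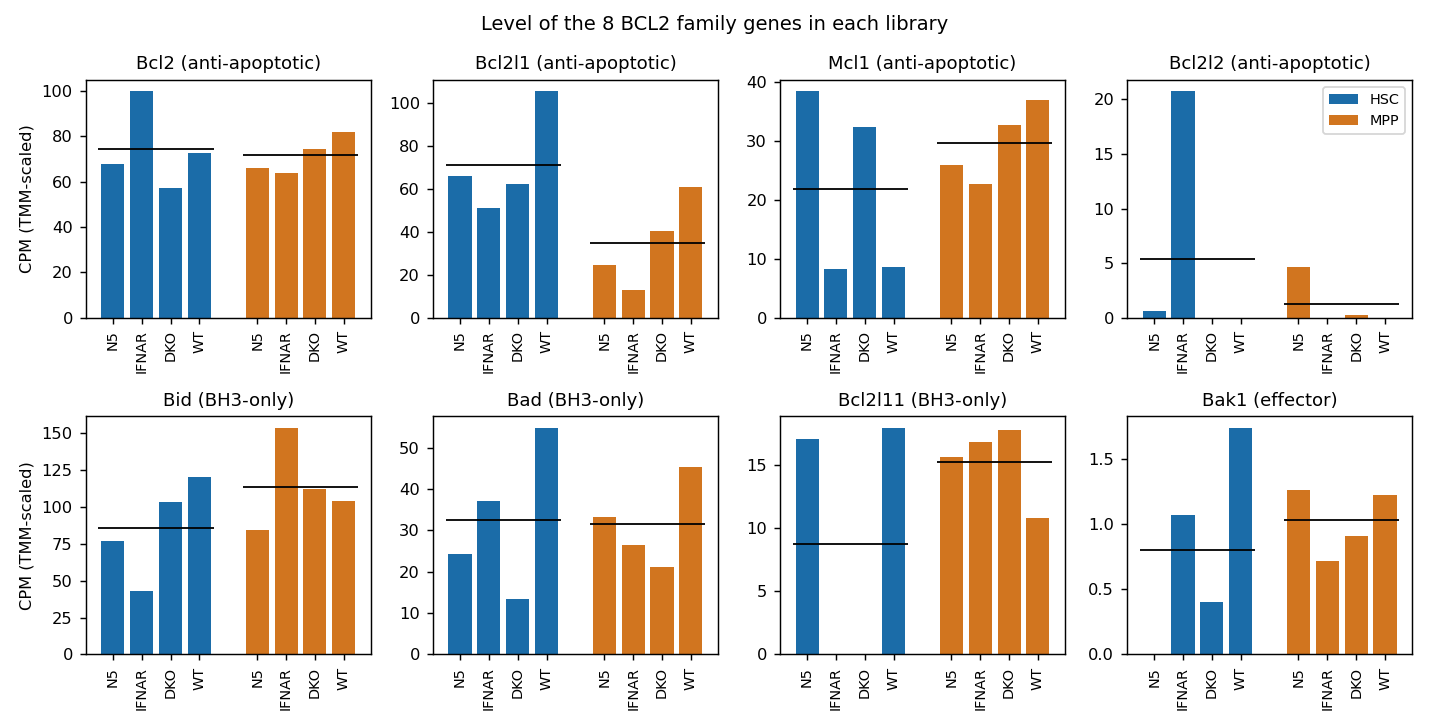
Level of each of the 8 genes in each library, in TMM-scaled CPM, with HSC libraries in blue and MPP libraries in orange and a line at the mean of each 4. Vertical scales differ between genes; Bcl2l1 is higher in HSC in each genotype, Mcl1 is at 8.20 and 8.55 CPM in the HSC libraries labelled IFNAR and WT, and Bcl2l11 is at 0 in the HSC libraries labelled IFNAR and DKO.

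Among the anti-apoptotic members, Bcl2l1, whose main product BCL-XL holds back BAX and BAK, stood at 65.9, 50.8, 62.4 and 105 CPM in the HSC libraries labelled N5, IFNAR, DKO and WT. Their MPP counterparts, in that order, had 24.6, 12.7, 40.5 and 60.9 CPM. Each HSC library lay above the MPP library of its genotype, but the cell types overlapped, since the WT MPP library lay above the IFNAR HSC library. Means were 71.1 ± 23.8 CPM in HSC and 34.7 ± 20.9 CPM in MPP (SD, n = 4 each), and the log2 difference within genotypes averaged 1.21 ± 0.63, from 0.62 to 2.00. Of all tested genes, 9.81% were higher in HSC in 4 of 4 pairs. By edgeR's quasi-likelihood test with genotype as a block the log2 fold change was 1.21 (SE 0.40), with an unadjusted p of 0.0280 and an adjusted p of 0.409, so the difference did not pass; 10.1% of tested genes had an unadjusted p under 0.05. DESeq2 gave 1.23 (SE 0.36) with an adjusted p of 0.00610, in a fit that called 15.5% of genes. Leaving out any 1 library kept the edgeR log2 fold change between 0.94 and 1.40 and the adjusted p between 0.593 and 0.701. With genotype as a block, a library left without its partner adds nothing to the cell type difference. Each omission thus in effect drops the pair of a genotype. In pooled cells, fewer cells with a transcript and less transcript per cell cannot be told apart.

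Both megakaryocytes and red cell precursors depend on BCL-XL, and the summed levels of their listed markers lay above the MPP libraries in every HSC library. Of 9 listed megakaryocyte genes, 8 had a positive fold change in HSC, and their summed level was 633 to 1171 CPM in HSC libraries and 74.1 to 335 CPM in MPP libraries. Pf4, the gene of a platelet chemokine, averaged 80.8 CPM in HSC and 3.35 CPM in MPP, and Cavin2 was at 0 in all MPP libraries. The 9 listed erythroid genes summed to 1708 to 2043 CPM in HSC libraries and 780 to 1151 CPM in MPP libraries, but their directions were mixed: 5 had a positive and 4 a negative fold change, with 2 higher and 3 lower in HSC in 4 of 4 pairs. Car2, a carbonic anhydrase, held most of the sum and averaged 1296 CPM in HSC and 652 CPM in MPP, whereas its relative Car1 averaged 6.99 CPM in HSC and 111 CPM in MPP. The part of such cells or of such priming in the Bcl2l1 difference was not tested.

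The promoter of Bcl2l1 is shown because this gene alone differed in one direction in all 4 genotypes. The 250 bases before its outermost RefSeq start site, chr2:152831729-152831978 on the minus strand of GRCm38.p6, read 5′ to 3′ as follows, with matches to the NFAT core in capitals.
Bcl2l1: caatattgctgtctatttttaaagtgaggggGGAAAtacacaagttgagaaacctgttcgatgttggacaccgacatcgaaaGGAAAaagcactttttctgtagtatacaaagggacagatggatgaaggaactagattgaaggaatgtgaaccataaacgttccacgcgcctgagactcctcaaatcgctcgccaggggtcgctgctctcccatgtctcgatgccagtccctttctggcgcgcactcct
Each promoter window was searched on both strands for a STAT motif (TTCNNNGAA), an interferon response motif (GAAA, any 2 bases, GAAA), the NFAT core (GGAAA) and a FOXO motif (GTAAACA), which are present in 7.04%, 2.98%, 55.7% and 3.17% of 32536 promoter windows of this length. The Bcl2l1 window shown holds 2 NFAT core matches, starting 219 and 168 bases before the start site, and none of the other motifs. The windows before its other RefSeq start sites hold 3 and 1 NFAT core matches and none of the other motifs. None of the windows of the 8 genes holds the STAT or the interferon response letters. A match describes letters only and was not tested as a site.

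Bcl2, the founding member, was at 67.9, 99.9, 57.4 and 72.7 CPM in the HSC libraries labelled N5, IFNAR, DKO and WT, against 66.1, 63.7, 74.5 and 81.9 CPM in the MPP libraries. The groups overlapped throughout, and 2 of 4 pairs were higher in HSC. Means of 74.5 ± 18.1 CPM in HSC and 71.5 ± 8.28 CPM in MPP gave a log2 fold change of 0.03 (SE 0.28, edgeR adjusted p = 0.992). Bcl2 had the smallest spread of the 8 genes in both cell types: its log2 SD was 0.33 in HSC and 0.16 in MPP, and tested genes of 50 to 100 CPM had median log2 SDs of 0.61 in HSC and 0.45 in MPP.

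The balance of Bcl2 and Bcl2l1 differed in the same way in every genotype. The ratio of Bcl2 to Bcl2l1 counts was 1.03, 1.96, 0.919 and 0.689 in the HSC libraries labelled N5, IFNAR, DKO and WT, against 2.69, 5.01, 1.84 and 1.34 in the MPP libraries. Within a genotype the HSC ratio was 0.383 to 0.513 times the MPP ratio, a log2 difference of -1.17 ± 0.22 (SD, n = 4 pairs), although the ratios themselves spanned a wide range and overlapped between the cell types. Of the 10 ratios among Bcl2, Bcl2l1, Mcl1, Bid and Bad, 4 had the same direction in all 4 pairs. Each of those 4 contains Bcl2l1, so they are not separate from its higher level in HSC in every genotype. The ratio of Bcl2 to Bcl2l1 had the smallest spread between pairs. It was singled out after its values were seen, so it is given without a test.

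Mcl1 encodes a short-lived guardian protein. Its level was 38.5, 8.20, 32.5 and 8.55 CPM in the HSC libraries labelled N5, IFNAR, DKO and WT, against 26.0, 22.8, 32.8 and 37.0 CPM in the MPP libraries. The HSC libraries fell into a high pair, N5 and DKO, and a low pair, IFNAR and WT, with 1181 and 1539 counts in the high pair, against 321 and 295 in the low pair. Exact Poisson 95% intervals were 36.4 to 40.8 CPM for the N5 library and 7.60 to 9.58 CPM for the WT library, and they cover counting error only. Counting error of reads was small beside the gap between the pairs, whereas the MPP libraries spanned 22.8 to 37.0 CPM. Amplified reads are not independent molecules, so these intervals do not cover the sampling of molecules. Means were 21.9 ± 15.9 CPM in HSC and 29.6 ± 6.41 CPM in MPP, a log2 fold change of -0.76 (SE 0.79, edgeR adjusted p = 0.872). The log2 SD of Mcl1 was 1.20 in HSC and 0.31 in MPP, and the median for genes of 10 to 50 CPM was 1.14 in HSC and 0.78 in MPP.

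Bcl2l2, whose product BCL-w is a further guardian, was at 0.587, 20.8, 0 and 0 CPM in the HSC libraries labelled N5, IFNAR, DKO and WT, against 4.64, 0, 0.227 and 0 CPM in the MPP libraries. Nearly all of its signal thus came from 1 HSC library, with 813 counts, and 1 MPP library, with 132 counts, of different genotypes. It did not pass the filter and was not tested. Its exons share 594 bases on the same strand with the overlapping gene Gm20521. How reads of the shared stretch were split between the genes is unknown. The 84 counts of Gm20521 (1.77 CPM) were all in the HSC library labelled DKO, in which Bcl2l2 was at 0. Gm20521 itself was at 0 in the 2 libraries that held most of the Bcl2l2 signal.

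Levels of different genes were compared per kilobase of merged exons (GENCODE M21, GRCm38). On that scale Bcl2l1 made up 43.3%, 38.2%, 46.3% and 68.8% of the summed level of the 4 anti-apoptotic genes in the HSC libraries labelled N5, IFNAR, DKO and WT, against 25.2%, 16.9%, 33.2% and 40.2% in the MPP libraries. Bcl2l1 had the largest share in 4 of 4 HSC libraries, while Mcl1 led in the MPP libraries labelled N5 and DKO, Bcl2 in IFNAR and Bcl2l1 in WT. Mean shares were 49.1 ± 13.5% in HSC and 28.9 ± 10.1% in MPP for Bcl2l1, 26.2 ± 7.61% in HSC and 33.5 ± 6.58% in MPP for Bcl2, and 20.5 ± 14.6% in HSC and 36.3 ± 3.28% in MPP for Mcl1 (SD, n = 4 each). Dividing by the longest coding transcript, an alternative added after the data were seen, gave Bcl2l1 59.4% in HSC and 38.7% in MPP, and Mcl1 14.4% in HSC and 27.6% in MPP, so the leading gene in MPP depends on the length used.

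**Figure D2:**
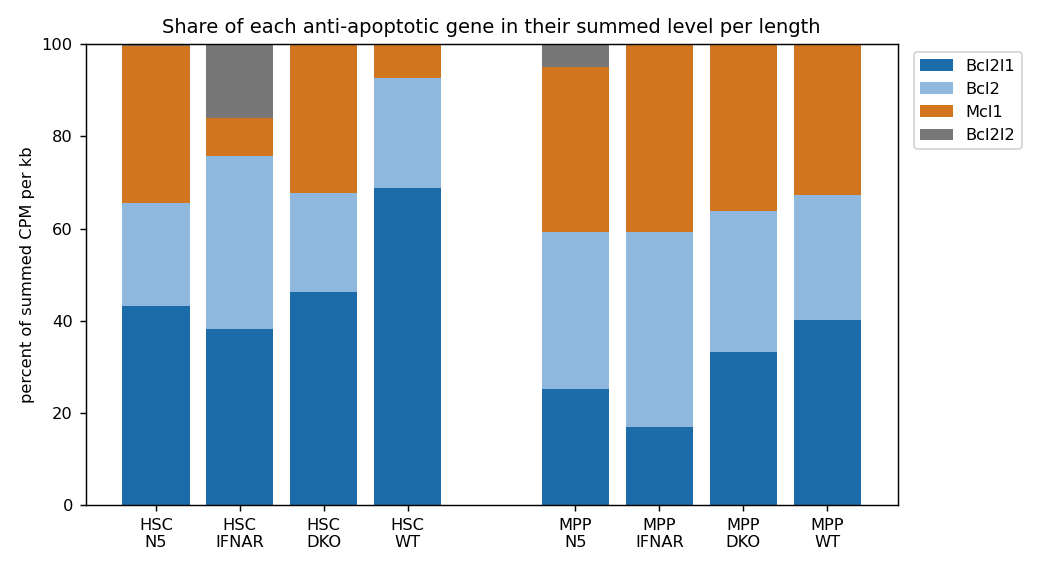
Percent of the summed CPM per kilobase of the 4 anti-apoptotic genes taken by each gene, in each HSC and MPP library. Bcl2l1, at the bottom of each bar, takes 38.2% to 68.8% in HSC and 16.9% to 40.2% in MPP.

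Of the pro-apoptotic members, Bid, a BH3-only protein that caspase-8 cuts to carry death receptor signals to mitochondria, was at 76.6, 42.8, 103 and 120 CPM in the HSC libraries labelled N5, IFNAR, DKO and WT, against 84.1, 154, 112 and 104 CPM in the MPP libraries. The IFNAR genotype held both the lowest HSC and the highest MPP value, and the groups overlapped. Means of 85.7 ± 33.7 CPM in HSC and 113 ± 29.3 CPM in MPP gave a log2 fold change of -0.45 (SE 0.40, edgeR adjusted p = 0.834), and 1 of 4 pairs was higher in HSC. Bid shares 628 exon bases on the opposite strand with Bcl2l13, itself at 63.1 ± 16.8 CPM in HSC and 97.3 ± 26.2 CPM in MPP, and counting was taken as unstranded, so the split of those reads is unknown.

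Bad encodes a BH3-only protein that survival kinases phosphorylate and 14-3-3 proteins then hold in the cytosol. It stood at 24.3, 37.1, 13.4 and 54.8 CPM in the HSC libraries labelled N5, IFNAR, DKO and WT, against 33.3, 26.4, 21.2 and 45.2 CPM in the MPP libraries. WT was highest and DKO lowest in both cell types, and HSC and MPP overlapped, with means of 32.4 ± 17.8 CPM in HSC and 31.5 ± 10.4 CPM in MPP. The log2 fold change of HSC over MPP was -0.09 (SE 0.53, edgeR adjusted p = 0.988), and its sign turned under limma-voom (0.10), the bias-adjusted quasi-likelihood method (0.011) and the fit without the genotype block (0.040).

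Bcl2l11, the gene of BIM, a BH3-only protein that binds all of these guardians and rises when cytokines are withdrawn, stood at 17.1, 0, 0 and 18.0 CPM in the HSC libraries labelled N5, IFNAR, DKO and WT. The MPP libraries had 15.6, 16.9, 17.8 and 10.8 CPM. The 6 libraries with reads lay within a narrow range, with 326 to 629 counts each, and the other 2 held no count at all. Against the floor of 3 counts in a library, scaled reads were at least 220.0-fold fewer in the HSC than in the MPP library labelled IFNAR. For DKO they were at least 281-fold fewer. These are bounds on amplified reads, not on molecules. In contrast, the HSC to MPP ratio was 1.09 for N5 and 1.67 for WT. The edgeR log2 fold change of HSC over MPP was -4.97 (SE 5.64) with an adjusted p of 0.888, and DESeq2 gave -5.55 (SE 2.07) with an adjusted p of 0.0487; a fitted value against zeros depends on the method, and leaving out 1 library put the edgeR value between -9.46 and -1.15. Libraries without a count were common among genes of this level: 32.3% of the 4609 tested genes of 10 to 50 CPM had 0 counts in at least 1 library, 19.6% had a 0 in an HSC library and in no MPP library, and 32 of them (0.694%) were at 0 in the same 2 HSC libraries and no other.

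The promoter of Bcl2l11 is shown because FOXO factors are known activators of this gene. The window before its other RefSeq start site, chr2:128127325-128127574, holds none of the motifs and is not printed. Its 250 bases before the first RefSeq start site, chr2:128125788-128126037 on the plus strand of GRCm38.p6, carry 1 FOXO match, in capitals, starting 227 bases before the start site, and no NFAT core.
Bcl2l11: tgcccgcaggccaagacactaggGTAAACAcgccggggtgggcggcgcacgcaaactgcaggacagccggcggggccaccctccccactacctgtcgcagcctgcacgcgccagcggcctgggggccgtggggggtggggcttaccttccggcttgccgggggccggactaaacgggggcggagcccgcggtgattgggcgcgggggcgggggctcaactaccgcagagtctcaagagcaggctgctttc
Foxo3, a FOXO factor of stem cells, is named here for this reason and not by the naming rule, after its values were seen. It averaged 16.9 CPM in HSC and 34.9 CPM in MPP. The 2 HSC libraries without Bcl2l11 had 24.7 CPM (IFNAR) and 11.8 CPM (DKO) of Foxo3, against 6.49 CPM (N5) and 24.5 CPM (WT) in the other HSC libraries. Levels of the other listed FOXO genes, Foxo1 and Foxo4, are not given here.

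Bak1, the effector of the set, was low in all libraries, with at most 60 counts, at 0, 1.07, 0.401 and 1.74 CPM in the HSC libraries labelled N5, IFNAR, DKO and WT, against 1.26, 0.715, 0.906 and 1.22 CPM in the MPP libraries. HSC values lay on both sides of the MPP values. The log2 fold change of HSC over MPP was -1.03 (SE 1.60, edgeR adjusted p = 0.921), and leaving out 1 library put it between -1.86 and -0.012, the value without the N5 MPP library. The fit without the N5 HSC library, which is at 0, gave -0.014, since either omission in effect drops the N5 pair. Bak1 shares up to 437 exon bases on the opposite strand with Ggnbp1, whose counts reached 304 in a library, so its few reads are of uncertain origin. Bax, the other effector, was far higher, at 59.1 ± 23.0 CPM in HSC and 54.9 ± 0.991 CPM in MPP, with a log2 fold change of 0.02 (edgeR adjusted p = 0.996).

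Ordered by level per kilobase in HSC, the genes ran Bid (24.1 ± 9.49 CPM per kilobase), Bcl2l1 (15.5 ± 5.19), Bad (12.7 ± 6.95), Bcl2 (8.13 ± 1.98), Mcl1 (6.42 ± 4.64), Bcl2l2 (1.20 ± 2.31), Bcl2l11 (1.09 ± 1.26) and Bak1 (0.334 ± 0.318). Every pair of neighbours in this order overlapped over the 4 HSC libraries. In MPP the order was Bid (31.9 ± 8.24), Bad (12.3 ± 4.07), Mcl1 (8.67 ± 1.88), Bcl2 (7.81 ± 0.904), Bcl2l1 (7.56 ± 4.55), Bcl2l11 (1.90 ± 0.389), Bak1 (0.427 ± 0.109) and Bcl2l2 (0.272 ± 0.512). Bid stood clear of Bad in MPP, Bcl2l1 clear of Bcl2l11, and Bcl2l11 clear of Bak1, and all other neighbours overlapped. Bid led in 7 of 8 libraries, and Bad led in the HSC library labelled IFNAR.

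**Figure D3:**
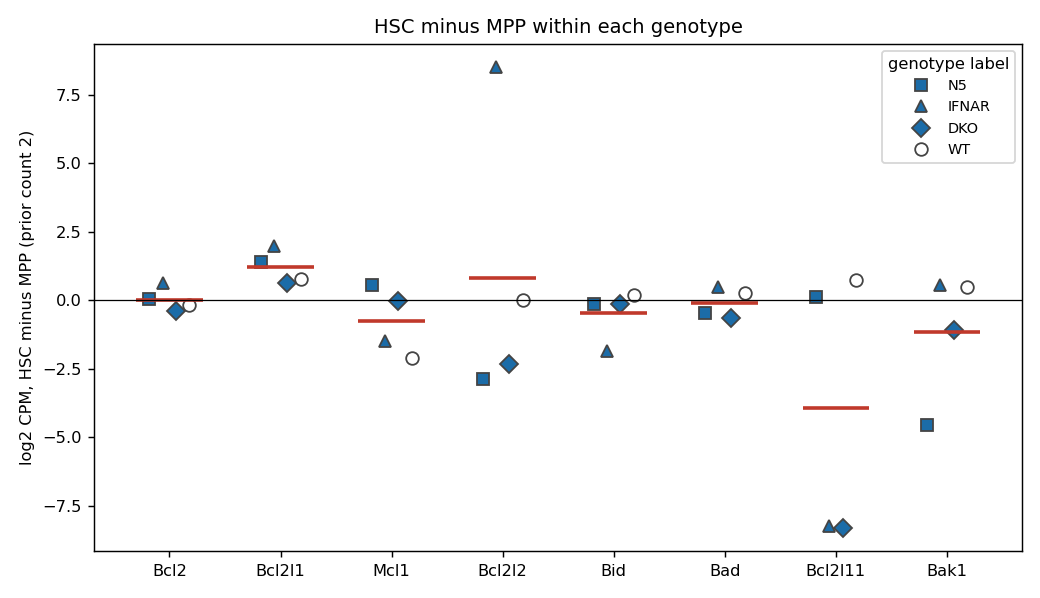
HSC minus MPP difference in log2 CPM (prior count 2) within each genotype for each gene, with a red line at the mean of the 4. Bcl2l1 is above 0 in 4 of 4 genotypes; values of Bcl2l2, Bcl2l11 and Bak1 where a library is at 0 depend on the prior count, and a Bcl2l2 point at 0 marks WT, where both libraries are at 0.

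Over the set, 2 of the 7 tested genes had a positive fold change in HSC and 5 a negative one, with a median log2 fold change of -0.45; over all tested genes 44.2% were positive and the median was -0.10. With edgeR's quasi-likelihood test 0 of 7 members were called at an adjusted p under 0.05, against 0.0165% of all tested genes, and 1 of 7 had an unadjusted p under 0.05, against 10.1%. Limma-voom and the bias-adjusted method also called 0 of the 7, against 1.29% and 0.882% of all genes, and DESeq2 called 2 of the 7, against 15.5%. For 0 of the 8 genes did HSC and MPP levels separate completely, against 10.4% of tested genes.

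The donor labels were compared next, over 4 pairs of libraries that share cell type and the status of the other gene. For loss of Nfat5 the pairs are N5 with WT and DKO with IFNAR. For loss of Ifnar1 they are IFNAR with WT and DKO with N5, so the comparisons share all libraries. Because the IFNAR label names no Cre, pairs that hold an IFNAR library may also differ in Vav-Cre. In those pairs Cre and the named gene cannot be told apart. EdgeR's quasi-likelihood test called 0 of 12132 genes for either label at an adjusted p under 0.05. At an unadjusted p under 0.05, the Nfat5 labels had 338 genes (2.79%) and the Ifnar1 labels 398 (3.28%), among them 0 of the 7 tested members. DESeq2 called 166 genes (1.37%) for Nfat5 and 233 (1.92%) for Ifnar1, and limma-voom and the bias-adjusted method each called 0 for Nfat5 and 1 (0.00824%) for Ifnar1, none of them a member.

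Bad was lower with either defect in 4 of 4 pairs. It averaged 23.0 ± 8.22 CPM in libraries labelled as lacking Nfat5 and 40.9 ± 12.04 CPM in those labelled intact, a log2 fold change of -0.85 (SE 0.47) with an unadjusted edgeR p of 0.120 and an adjusted p of 1. Between the Ifnar1 labels it averaged 24.5 ± 9.96 CPM in deficient and 39.4 ± 13.4 CPM in intact libraries, a log2 fold change of -0.69 (SE 0.47) with an unadjusted edgeR p of 0.185 and an adjusted p of 1. Of all tested genes, 5.35% were lower in 4 of 4 Nfat5 pairs and 6.16% in 4 of 4 Ifnar1 pairs. Neither difference had an edgeR p under 0.05, before or after correction. Bad shares 524 exon bases on the opposite strand with Gpr137, itself at 55.2, 26.2, 14.1 and 8.75 CPM in the HSC libraries labelled N5, IFNAR, DKO and WT and 10.4, 8.25, 16.2 and 14.2 CPM in the MPP libraries. That order is not the order of Bad, and the share of reads in common is unknown.

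The promoter of Bad is shown because its level was lower with the Nfat5 label in every pair. The 250 bases before its first RefSeq start site, chr19:6941611-6941860 on the plus strand of GRCm38.p6, hold 2 NFAT core matches in capitals, 1 on each strand, starting 119 and 31 bases before the start site.
Bad: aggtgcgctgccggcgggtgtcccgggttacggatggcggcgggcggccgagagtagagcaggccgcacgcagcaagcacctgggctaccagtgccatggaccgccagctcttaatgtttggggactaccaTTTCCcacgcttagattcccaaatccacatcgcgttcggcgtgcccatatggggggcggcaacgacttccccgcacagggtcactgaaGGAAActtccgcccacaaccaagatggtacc
The window before the other RefSeq start site of Bad holds 1 NFAT core match. Since 55.7% of all promoter windows hold this core, its presence here is no mark of Bad.

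Mcl1 was the member with the largest positive difference between the Nfat5 labels. It averaged 32.5 ± 5.11 CPM in libraries labelled as lacking Nfat5 and 19.1 ± 13.7 CPM in intact ones, with a log2 fold change of 1.05 (SE 0.71), an unadjusted edgeR p of 0.187 and an adjusted p of 1. The HSC pairs had log2 differences of 2.16 (N5 over WT) and 1.98 (DKO over IFNAR), and the MPP pairs had -0.51 and 0.52. A term for cell type by Nfat5 label gave an edgeR p of 0.186 and an adjusted p of 1 for Mcl1, so the cell types were not shown to differ. Between the Nfat5 labels the edgeR log2 fold change was -0.26 for Bcl2 and -0.13 for Bid, each with an adjusted p of 1. Between the Ifnar1 labels, Bcl2l1 averaged 41.6 ± 21.2 CPM in deficient and 64.2 ± 33.1 CPM in intact libraries, with 3 of 4 pairs lower and a log2 fold change of -0.63 (SE 0.55). In edgeR's quasi-likelihood fit across all genes its unadjusted p was 0.293 and its adjusted p 1.

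**Figure D4:**
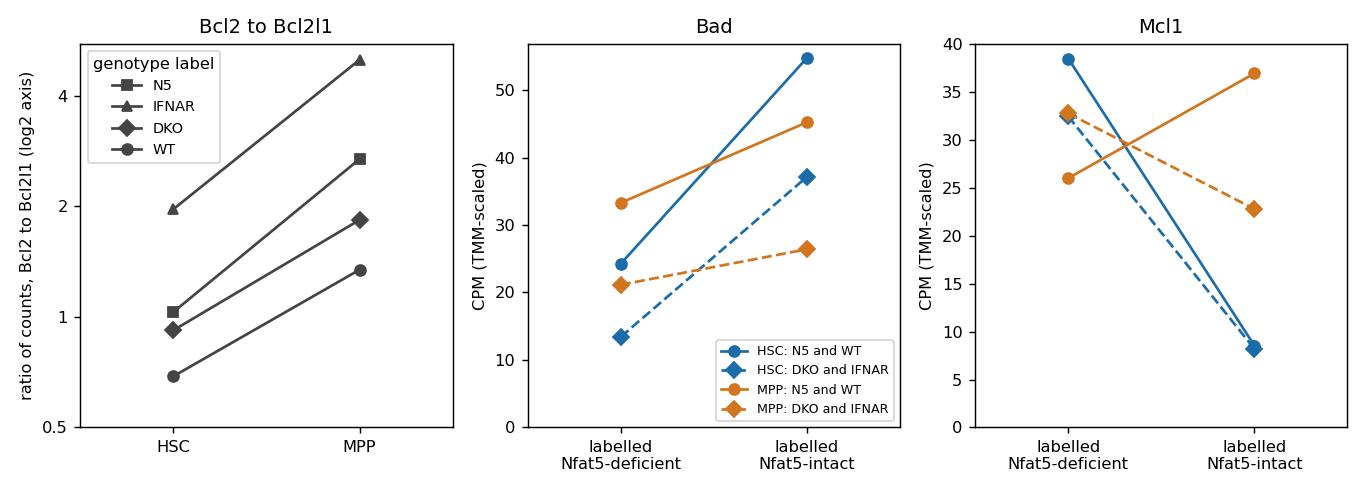
Left, ratio of Bcl2 to Bcl2l1 counts (log2 axis) in the HSC and MPP library of each genotype; middle and right, CPM of Bad and Mcl1 in libraries labelled Nfat5-deficient and their intact partners of the same cell type. All 4 ratio lines run upward from HSC to MPP, all 4 Bad pairs are lower in the deficient library, and for Mcl1 both HSC pairs and 1 of the MPP pairs are higher there.

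The other genes of the pathway were taken from lists chosen with earlier results of these data known, and none of their tested members was called by edgeR. For the counts below, 44.2% of all tested genes had a positive fold change in HSC, and 10.1% had an unadjusted edgeR p under 0.05. Of the 17 other BCL2 family genes, 9 could be tested, 3 of them with a positive and 6 with a negative fold change in HSC (median -0.34). Bnip3l, which marks mitochondria for removal, averaged 151 ± 50.4 CPM in HSC and 112 ± 23.9 CPM in MPP. Bcl2l13 had an unadjusted edgeR p of 0.0364 and an adjusted p of 0.448. The BH3-only genes Bmf and Hrk were at 0 in all 8 libraries. Bcl2a1b, an anti-apoptotic gene with near-identical copies among which reads may be split, was at 0 in all HSC libraries and at 5.69 ± 2.82 CPM in MPP libraries, with an adjusted p of 0.390.

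Downstream of the mitochondria, 4 of 15 apoptosome and caspase genes had a positive fold change and 11 a negative one (median -0.25). Vdac2, the channel that holds BAK at the mitochondrial membrane, averaged 155 ± 13.8 CPM in HSC and 233 ± 38.9 CPM in MPP, without overlap, and its edgeR adjusted p was 0.373. Of all tested genes, 10.4% did not overlap between the cell types. Cytochrome c itself, Cycs, named although outside the naming rule, stood at 69.7 ± 10.6 CPM in HSC and 137 ± 17.9 CPM in MPP (adjusted p = 0.302). Among the inhibitor of apoptosis (IAP) genes, 6 of 8 were positive (median 0.33), but Birc5, whose product survivin serves in cell division, averaged 79.1 ± 9.80 CPM in HSC and 153 ± 28.0 CPM in MPP (adjusted p = 0.278). In the death receptor pathway 5 of 11 were positive (median -0.20), and Casp8, the protease that cuts BID, averaged 151 ± 30.0 CPM in HSC and 217 ± 28.4 CPM in MPP (adjusted p = 0.513).

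Genes that act on BAD, MCL1 or BCL2 were split in direction. Kinases of BAD and 14-3-3 genes had 8 positive and 8 negative fold changes (median -0.001). Pim2, a kinase that phosphorylates BAD, averaged 123 ± 36.9 CPM in HSC and 61.5 ± 17.9 CPM in MPP, with an unadjusted edgeR p of 0.0100 and an adjusted p of 0.324. Its relative Pim3 averaged 76.2 ± 17.2 CPM in HSC and 40.7 ± 27.2 CPM in MPP (adjusted p = 0.519). Of the genes that control MCL1 turnover, 4 of 9 were positive (median -0.27), and of the partners of BCL2 4 of 11 were positive (median -0.42), with Becn1, an autophagy protein that BCL2 binds, at 139 ± 33.9 CPM in HSC and 204 ± 29.2 CPM in MPP (adjusted p = 0.463). Among the transcription factors known to act on family genes 9 of 16 were positive (median 0.19). Stat5a, which drives Bcl2l1 downstream of cytokine receptors, averaged 238 ± 91.7 CPM in HSC and 146 ± 41.6 CPM in MPP, with an unadjusted edgeR p of 0.0279 and an adjusted p of 0.409.

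**Figure D5:**
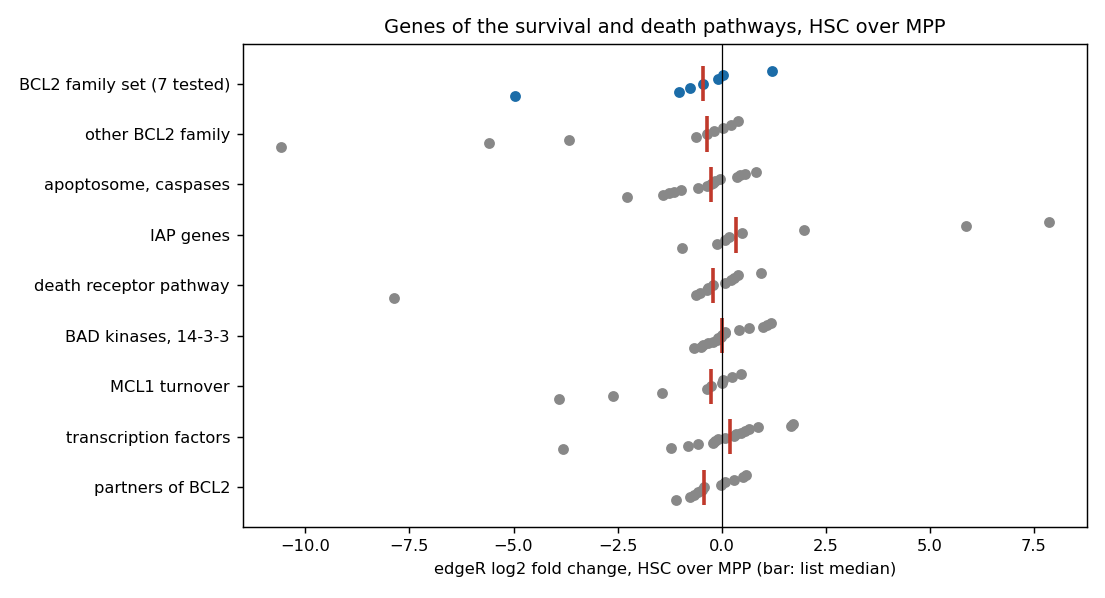
edgeR log2 fold changes of HSC over MPP for the tested genes of each list, 1 point per gene, with a red bar at the list median. Medians lie between -0.45 and 0.33, and the points farthest from 0 belong to genes with libraries at 0.

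Across the 8 libraries, the genes whose log2 CPM followed the members most closely among 8824 candidates are given as a description. For Bcl2l1 they were Pitpnm1 (Pearson r = 0.97), at 76.9 ± 25.3 CPM in HSC and 36.3 ± 20.5 CPM in MPP, and Zfp239 (r = 0.96). Panx1 (r = 0.997) and Paqr5 (r = 0.99) shared with Bcl2l11 the zeros in the HSC libraries labelled IFNAR and DKO, and Cd200r1 (r = 0.99) and Ift88 (r = 0.99) were at 0 in the HSC libraries labelled IFNAR and WT, in which Mcl1 was lowest. For Bcl2 they were Tm2d2 (r = 0.97) and Aup1 (r = 0.96), for Bid Fabp5 (r = 0.96) and Sass6 (r = 0.96), for Bad Zeb2 (r = 0.93) and Sash3 (r = 0.92), and for Bak1 Itpr1 (r = 0.98) and Mxd3 (r = 0.97). These correlations rest on 8 points, were the highest of all candidates by choice, and carry no p.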

How the data were processed

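Polyadenylated RNA was amplified with the Smart-Seq2 protocol, per the labels' protocols, and such libraries carry no strand mark and no molecular identifiers. STAR 2.7.8a, RSEM 1.3.0 and the build GRCm39 are named in the submitters' processing notes. The authors deposited whole-number counts for 53700 genes in 8 libraries without normalization. The sources used here do not give the annotation release or how the counts became whole. Library totals were 28871693 to 47205950, at which counting error is small for most members and the spread between libraries sets the precision. Counting was taken as unstranded, and amplified reads are not independent molecules.

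Counts were tested with edgeR 4.0.16 (legacy quasi-likelihood) under R 4.3.3, scaled by TMM after filterByExpr grouped by cell type (12132 genes, 99.5% of counts), with Benjamini-Hochberg adjustment at 0.05. The fit of HSC over MPP held genotype as a block and left 3 residual degrees of freedom, since the labels give each genotype 1 library of each cell type and no replicate numbers. The Nfat5 and Ifnar1 labels were fitted together with cell type (4 residual degrees of freedom). Log2 CPM used a prior count of 2. DESeq2 1.42.0, limma-voom (limma 3.58.1) and other settings served as alternatives, and the scripts were tested on simulated data. The simulations served to check the scripts, and their detection rates are not given here. In the edgeR fit of HSC over MPP the common dispersion was 1.09. Gene lengths and overlaps came from GENCODE M21 (GRCm38) and promoter windows from RefSeq (GRCm38.p6), both of another build than the counts and matched by identifier or symbol. All 8 genes matched.

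The members, the lists and the tests were chosen with earlier results of these data known. Named genes were the 8 members and, for each other list, up to 4 genes with the largest mean CPM and up to 3 with the largest absolute log2 fold change; Cycs, Foxo3, Bmf, Hrk and Pf4 fall outside this rule and were chosen after their values were seen, and Cd48, Nfat5, Ifnar1 and genes that overlap a member are given as checks. For each of the 7 members that passed the filter, the 2 genes with the highest Pearson correlation and a mean of at least 10 CPM were named.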

Additional observations from a re-analysis of the deposited data

Results flagged for a closer look

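Among 4 HSC libraries, the one labelled IFNAR stood far from the others for Bcl2l2, at 20.8 CPM against a median of 0 CPM in the other 3. Likewise the MPP library labelled N5 had 4.64 CPM of Bcl2l2, against a median of 0 CPM in the other 3 MPP libraries. The gap to the nearest library was 0.972 and 0.951 of the whole range, above Dixon's critical value for 4 samples at the 95% level. For normally distributed values chance puts about 1 in 20 such groups past that value; each group here has 2 libraries at 0, and the rate for such groups was not tested.

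The differences of Bcl2l11 between the Ifnar1 labels had opposite signs in the cell types. The log2 differences, deficient minus intact, were -8.31 and -8.24 in HSC and 0.64 and 0.19 in MPP, and the means differed by -8.69, a size that depends on the prior count because both deficient HSC libraries are at 0. The term for cell type by Ifnar1 label had an unadjusted edgeR p of 0.0175 and an adjusted p of 1 in the fit across all genes.

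The differences of Bak1 between the Nfat5 labels, deficient minus intact, also had opposite signs, with log2 values of -4.98 and -1.30 in HSC and 0.04 and 0.32 in MPP and a difference between the means of -3.33. The value of -4.98 is against a library at 0 and depends on the prior count. The MPP counts were 36 in N5 and 37 in WT, and 32 in DKO and 26 in IFNAR, with overlapping exact Poisson 95% intervals, so a difference in MPP was not detectable at this depth. The term for cell type by Nfat5 label had an edgeR p of 0.227 and an adjusted p of 1, and all 8 libraries were under 2 CPM.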

How the results depend on the processing

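For HSC against MPP, edgeR called 2 genes, also with RLE factors and without the filter. It called 23 with a filter of 10 CPM in 4 libraries, 107 with the bias-adjusted method and 207 with no replicate block (cell type alone), limma-voom called 156, DESeq2 1880, and edgeR called 0 whichever library was left out. For the Nfat5 labels the count of 0 became 166 with DESeq2; for the Ifnar1 labels 0 became 233 with DESeq2, 1 with limma-voom and 1 with the bias-adjusted method. The cause was not tested. Without the genotype block Bcl2l1 had a log2 fold change of 1.04 (edgeR adjusted p = 0.563), and no member's call changed. With DESeq2, Bcl2l1 (1.23) and Bcl2l11 (-5.55) passed in HSC against MPP, and no other setting called a member. Fold changes of members turned sign in 34 cases, none of them called. Between HSC and MPP Bad turned to 0.10 (limma-voom), 0.011 (bias-adjusted) and 0.040 (no replicate block); between the Ifnar1 labels limma-voom gave 0.0049 for Mcl1 and 0.52 for Bak1. Leaving out 1 library gave, between HSC and MPP, -0.28 to 0.10 for Bad and -0.17 to 0.17 for Bcl2; between the Nfat5 labels, -0.46 to 0.32 for Bcl2l1, -1.45 to 1.48 for Bcl2l11 and -0.48 to 0.21 for Bid; and between the Ifnar1 labels, -0.15 to 0.16 for Bcl2, -0.81 to 0.86 for Bak1, -0.55 to 0.21 for Mcl1 and -0.20 to 0.44 for Bid. The Mcl1 share in MPP moved to 27.6% with the longest coding transcript. Counting error of reads is widest for Bak1 and Bcl2l2, the members with the fewest counts. For the other members, the sampling of molecules before amplification and other differences between single libraries cannot be told apart.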
